A study of Mus musculus with 4 samples.

Results

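Nefm, Nefl, Ntrk3, Spon1 and Rgs7bp are 5 genes known mainly from neurons, out of 27932 genes counted in the series. They were chosen because earlier results from these same data had placed them higher in mutant than in wildtype stromal cells of the embryonic mouse kidney, so that difference is described here without a test. Single cells of E14.5 kidneys (age in embryonic days) were profiled with Drop-seq, which captures each cell in a droplet with a barcoded bead and counts messenger molecules as unique molecular identifiers (UMIs) read near the 3' end of the transcript. The mutant group had 2 libraries labelled -/- for Hoxa9, 10 and 11 and for Hoxd9, 10 and 11, Abd-B type Hox genes that pattern the posterior body, and the wildtype group had 2 libraries. All 4 libraries came from a mixed strain background described as mostly CD-1 and 129. The labels do not say how the alleles were made or whether a library held 1 kidney or a pool, so the spread between libraries may be technical.

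Neurofilaments are the intermediate filaments of axons, and they assemble from a light, a medium and a heavy subunit encoded by Nefl, Nefm and Nefh. Ntrk3 encodes TrkC, the receptor of neurotrophin-3. Spon1 encodes F-spondin, a secreted matrix protein known from the floor plate of the neural tube, and Rgs7bp encodes a protein that anchors regulators of G protein signalling of the R7 family to the membrane. The stroma of the developing kidney is the mesenchyme that surrounds the ureteric tree and the forming nephrons and gives rise to interstitial and mural cells. Chga and Chgb, the chromogranins of secretory vesicles in neuroendocrine and sympathetic cells, serve here as a control for neural cells, since the adrenal medulla and nerves lie close to the kidney.

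Nefm and Nefl are paralogs that lie together on chromosome 14, so whether their counts can be told apart matters. In the GENCODE annotation of mm10, Nefm spans chr14:68082590-68124846 on the minus strand and Nefl spans chr14:68083863-68089095 on the plus strand. The longest run of bases that their reference transcripts share is 17 bases, in the coding sequence of both. It lies 2350 bases before the 3' end of the Nefm transcript and 2581 bases before the 3' end of the Nefl transcript, whereas the counted tags come from near the 3' end. One annotated Nefm transcript does not overlap Nefl at all. Exonic sequence of the other overlaps 1108 of the 3380 exon bases of Nefl on the opposite strand, at chr14:68083863-68084970. That stretch begins at the 5' end of Nefl, whose 3' end lies at chr14:68089095, and the 3' end of the overlapping Nefm transcript lies at chr14:68082590. The labels do not state whether strand was used in counting. If it was not, reads from that stretch cannot be told apart. How many counted tags came from it was not tested, and the division of counts between Nefm and Nefl carries that uncertainty. Of the other members, Ntrk3 spans chr7:78175959-78738012 on the minus strand, Spon1 chr7:113765998-114043370 on the plus strand and Rgs7bp chr13:104945904-105054930 on the minus strand.

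The tables held 3572346 and 21350698 counts in mutant libraries 1 and 2, against 9817486 and 24834658 in wildtype libraries 1 and 2. After filters on genes per barcode, mitochondrial share and doublet score, 793 and 4329 mutant cells and 1846 and 4755 wildtype cells were kept. Damaged cells often show a high mitochondrial share, and barcodes over the limit of 10% made up 19.6% and 29.1% in the mutant libraries, against 7.76% and 9.06% in the wildtype libraries, and the part of this in the results was not tested. Cells counted as stromal where they had at least 3 UMIs of Col1a1, Col1a2, Col3a1, Pdgfra, Meis1, Meis2 and Tcf21. They also needed at least 3 times the UMIs of any other lineage's markers, except those of neural cells, which were not compared. A cell with UMIs of neural genes could thus pass as stromal. This gate took 296 and 1641 mutant cells and 342 and 665 wildtype cells, with median depths of 2441 and 2816 UMIs in mutants and 2714.5 and 2690 UMIs in wildtypes. All 7 stromal markers were detected in every library. Their summed level was 12092 and 12346 CPM, UMIs scaled to a common library total, in mutant stromal cells, against 8974 and 4649 CPM in wildtype stromal cells, so the gated mutant cells carried more of them. Malat1, a nuclear RNA that can mark leaky or stripped cells, was also higher in mutant stroma, at 5202 and 7035 CPM against 2871 and 1866 CPM in wildtype stroma, and its part in the results was not tested. The 6 targeted Hox genes were still counted in mutant stroma, for example Hoxa11 at 38.4 and 66.2 CPM against 19.0 and 73.8 CPM in wildtype stroma, and Hoxd11 at 170 and 276 CPM against 121 and 65.5 CPM. A 3' tag outside an altered part of a gene does not check the genotype.

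All 5 members were higher in both mutant libraries than in both wildtype libraries, summed over stromal cells. Of the 10515 genes that passed the filter on low counts in these sums, 18.1% were higher in both mutant libraries than in both wildtype libraries. By edgeR 0.0571% were called higher, and 3 of the 5 members, Nefm, Nefl and Spon1, were among them. No reading is drawn from either count because this contrast chose the members. In such sums, fewer cells that express a gene and less RNA per cell cannot be told apart.

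Among the filament subunits, Nefm had 426 and 1220 UMIs in mutant stroma, or 390 and 208 CPM, against 32 and 50 UMIs in wildtype stroma, or 26.4 and 23.1 CPM. Both mutant libraries were far above both wildtype libraries. The mutant libraries also differed from each other beyond counting error, with exact Poisson 95% intervals of 354 to 429 CPM in mutant 1 and 196 to 220 CPM in mutant 2. The mean was 299 ± 129 CPM in mutants and 24.7 ± 2.37 CPM in wildtypes (SD, n = 2 each), a 12.1-fold difference. Nefl had 80 and 259 UMIs in mutant stroma, or 73.2 and 44.1 CPM, against 8 and 6 UMIs in wildtype stroma, or 6.60 and 2.77 CPM. The groups did not overlap, the first mutant library was again the higher one, and the means differed 12.5-fold. The wildtype Nefl level rested on 7 cells, and 1 cell of wildtype 1 held 6 of that library's 8 UMIs.

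Ntrk3, the neurotrophin-3 receptor, had 18 and 138 UMIs in mutant stroma, or 16.5 and 23.5 CPM, against 5 UMIs in each wildtype library, or 4.13 and 2.31 CPM. Unlike the filament genes, it was higher in mutant 2 than in mutant 1, and the means differed 6.21-fold. Spon1, the secreted matrix protein, had 50 and 267 UMIs in mutant stroma, or 45.8 and 45.4 CPM, against 12 and 10 UMIs in wildtype stroma, or 9.91 and 4.61 CPM. The mutant libraries were almost level with each other, and the means differed 6.28-fold. Rgs7bp, the membrane anchor, had 27 and 183 UMIs in mutant stroma, or 24.7 and 31.1 CPM, against 10 and 18 UMIs in wildtype stroma, or 8.25 and 8.30 CPM. Its 3.37-fold difference between the means was the smallest of the 5, with no overlap between the groups.

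**Figure D1:**
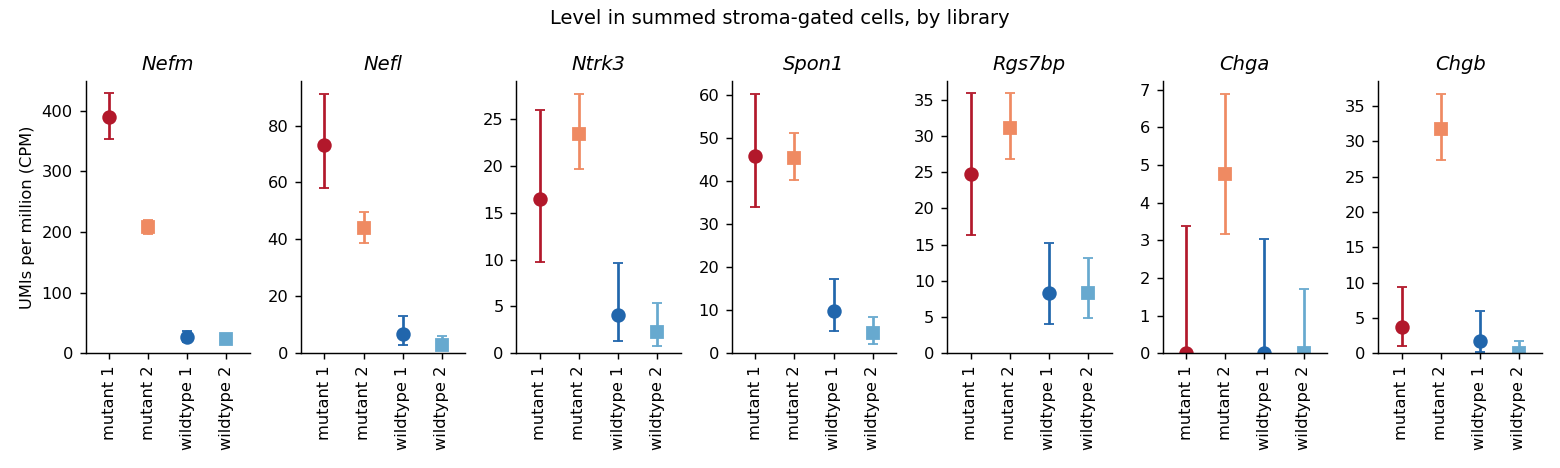
Level of each member and of Chga and Chgb in summed stroma-gated cells, in CPM on the y axis (each panel with its own scale from 0), for mutant 1, mutant 2, wildtype 1 and wildtype 2 on the x axis. Bars are exact Poisson 95% intervals for counting error. Every member is higher in both mutant libraries, whereas Chga and Chgb reach 4.76 and 31.8 CPM in mutant 2 and stay at or below 3.66 CPM in the other 3 libraries.

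The higher sums came with more cells holding the gene. With each stromal cell thinned to 1000 UMIs, so that depth was equal, Nefm was detected in 20.5% and 14.1% of mutant stromal cells, against 2.23% and 2.88% of wildtype stromal cells. The exact binomial intervals ran from 15.6% to 26.0% and from 12.3% to 16.1% in the mutant libraries, and from 0.901% to 4.54% and from 1.69% to 4.57% in the wildtype libraries. Without thinning the shares were 34.5% and 25.9% in mutants, against 6.73% and 5.56% in wildtypes. Nefl was found in 5.62% and 4.95% of thinned mutant cells, against 0.637% and 0.339% of thinned wildtype cells. Spon1 was found in 6.43% and 5.02% of thinned mutant cells, against 1.59% and 0.339% of thinned wildtype cells. For Ntrk3 the thinned shares were 1.61% and 3.05% in mutants, against 0.637% and 0.169% in wildtypes, and for Rgs7bp 3.21% and 3.35% in mutants, against 0.318% and 0.339% in wildtypes, each of these wildtype shares resting on 1 or 2 cells. The mean share of Rgs7bp was 9.98-fold higher in mutants at this depth, but 3.6-fold at 500 UMIs, 4.03-fold at 1500 UMIs and 3.53-fold without thinning. The thinning left out 47 and 266 mutant and 28 and 75 wildtype stromal cells that had fewer UMIs. Free RNA in droplets can give UMIs in cells that do not express a gene. Immune-gated cells should lack the filament genes, and they held no UMI of Nefm, Nefl, Ntrk3 or Spon1 in any library. Before thinning, those deep enough had medians of 2514 and 2742 UMIs in mutants and 2869.5 and 2932 UMIs in wildtypes, beside 3150 and 3303 UMIs in mutant stroma and 2904 and 2993 UMIs in wildtype stroma. They were few, and 0 of 50 thinned immune cells of mutant 2 allows a share of up to 6.0%. Erythroid-gated cells of wildtype 2 held 5 Nefm UMIs in 4 of 93 cells, or 8.77 CPM, and 1 UMI each of Nefl and Spon1. The 13 erythroid-gated cells of mutant 2 held 2 Spon1 UMIs and none of Nefm, Nefl or Ntrk3. The part of free RNA in the stromal shares was not tested. Rgs7bp was found in 4.35% and 2.0% of thinned mutant immune cells, against 3.85% and 5.66% of wildtype ones, so its stromal shares in mutants overlapped those of immune cells.

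Nefm was also held in larger amounts per cell. In mutant stroma 47 of 102 and 149 of 425 cells with Nefm had at least 3 UMIs of it, against 2 of 23 and 3 of 37 in wildtype stroma. The highest single cells held 32 and 25 Nefm UMIs in the mutant libraries, against 6 and 3 in the wildtype libraries. The 10 cells with the most Nefm held 35.2% of its UMIs in mutant 1 and 12.8% in mutant 2, against 59.4% and 46.0% in the wildtype libraries. For Ntrk3, Spon1 and Rgs7bp, most cells with the gene had a single UMI in every library.

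The stromal subtypes were taken as gates by marker UMIs, each with at least 2 UMIs of its genes and more than of any other gate, and they are called by those genes. Lum, Postn and Ogn are matrix proteins of fibroblast-like cells, Foxd1 and Ntn1 are known from the stroma of the nephrogenic zone, Rgs5, Kcnj8 and Abcc9 from pericytes, and Acta2, Myh11 and Cnn1 from smooth muscle. The gates did not hold equal shares of the stroma in the genotypes. Cells of the Lum/Postn/Ogn gate made up 52.4% and 45.4% of mutant stromal cells, against 24.0% and 13.4% of wildtype stromal cells. Cells with no gate made up 26.7% and 25.6% of mutant stromal cells, against 41.5% and 53.4% of wildtype stromal cells, and were shallower in mutants, with medians of 1233 and 1298 UMIs against 2300 and 1960 UMIs.

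Of the UMIs in mutant stroma, the Lum/Postn/Ogn gate held 61.1% for Nefm, 64.9% for Nefl, 80.8% for Ntrk3, 79.8% for Spon1 and 61.9% for Rgs7bp. The same cells held 49.7% of all stromal UMIs in mutants, so each member was over that mark. Each of the other 5 gates held at most 10.8% of any member's UMIs, but only 3.07% to 10.6% of all stromal UMIs. Nefl at 9.44% and Rgs7bp at 8.10% were over the 7.58% of all UMIs in the Foxd1/Ntn1/Crabp1/Fibin gate. So were Nefm in the Acta2/Myh11/Cnn1 gate, at 10.75% against 10.60%, and Ntrk3 in the Egfl6/Sfrp4/Dkk2/Smoc2 gate, at 4.49% against 3.84%. All other shares in these 5 gates were below the mark. In wildtype stroma, where the gate held 17.2% of all stromal UMIs, it held 17 of 82 Nefm UMIs, 7 of 14 Nefl UMIs, 4 of 10 Ntrk3 UMIs, 8 of 22 Spon1 UMIs and 10 of 28 Rgs7bp UMIs.

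**Figure D2:**
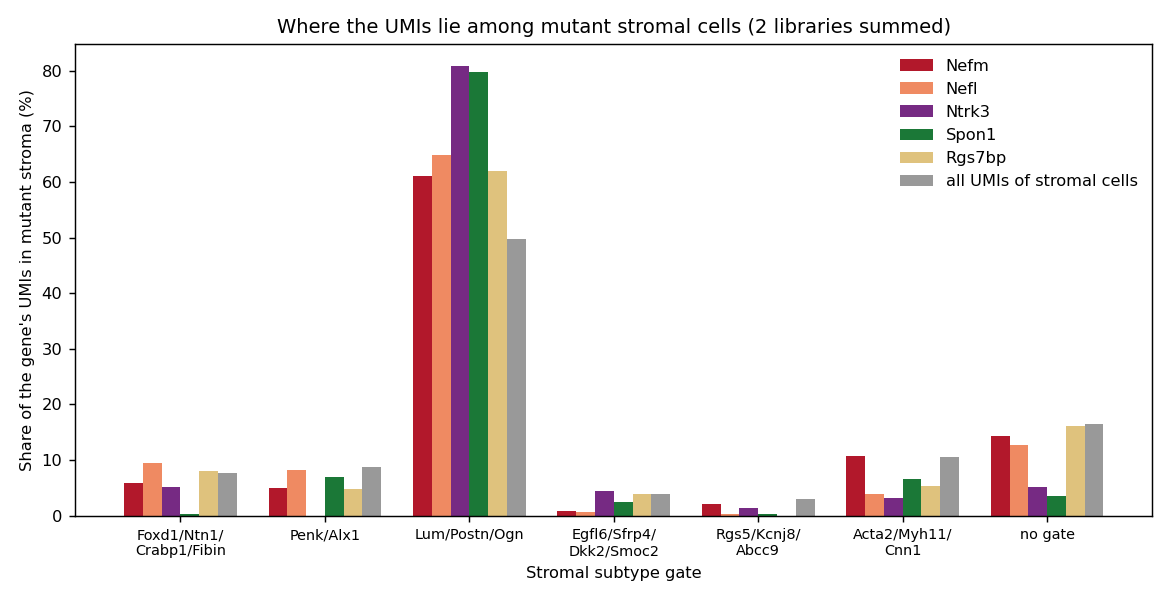
Share of each gene's UMIs in mutant stroma, in percent on the y axis, that lay in each stromal subtype gate on the x axis, with the 2 mutant libraries summed, beside the share of all stromal UMIs in the same cells (grey). The Lum/Postn/Ogn gate holds 61.1% to 80.8% of the members' UMIs and 49.7% of all UMIs.

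Nefm was higher in both mutant libraries than in both wildtype libraries in each of the 6 gates and in cells with no gate. How many of all genes did so within each gate was not counted. In the Lum/Postn/Ogn gate it had 500 and 246 CPM in mutants, against 40.1 and 21.1 CPM in wildtypes. In the Foxd1/Ntn1/Crabp1/Fibin gate it had 307 and 142 CPM in mutants, against 16.9 and 11.9 CPM in wildtypes, and in the Penk/Alx1 gate 123 and 135 CPM against 9.67 and 23.7 CPM. Cells with no gate had 292 and 189 CPM in mutants, against 24.8 and 22.9 CPM in wildtypes. The mutant level was thus found in these gates and outside them. The Acta2/Myh11/Cnn1 gate split the mutant libraries, with 15.7 and 261 CPM against 0 UMIs in both wildtype libraries, and mutant 1 had only 14 cells there. The Egfl6/Sfrp4/Dkk2/Smoc2 gate, called by these genes only, split them too, with 373 and 20.8 CPM in mutants against 0 and 18.5 CPM in wildtypes, from 9 and 82 mutant cells. In the Rgs5/Kcnj8/Abcc9 gate the wildtype level of Nefm was at its highest, 63.0 and 93.3 CPM, against 417 and 119 CPM in mutants, from 4 and 21 mutant cells.

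Nefl followed in 4 of the 6 gates and in cells with no gate, with no overlap between genotypes. The share of all genes that did so was again not counted, and Nefl was chosen on this contrast. It had 118 and 42.4 CPM in Foxd1/Ntn1/Crabp1/Fibin mutant cells against 5.63 and 0 CPM in wildtype cells, and 52.7 and 45.5 CPM in Penk/Alx1 mutant cells against 0 UMIs in wildtype cells. In the Lum/Postn/Ogn gate it had 85.6 and 58.8 CPM in mutants, against 28.1 and 0 CPM in wildtypes. In the Acta2/Myh11/Cnn1 gate its mutant 1 level, 15.7 CPM, rested on 1 UMI, against 0 UMIs in wildtype cells. There 3 UMIs would have been 46.6 and 57.9 CPM in the wildtype libraries, so mutant 1 cannot be told apart from them. The Penk/Alx1 level of Nefl in mutant 1 rested on 3 UMIs.

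Spon1 had another distribution. In Foxd1/Ntn1/Crabp1/Fibin cells it had 1 UMI in 129 mutant cells and none in 112 wildtype cells, whereas Nefm had 96 and 7 UMIs in the same cells. In the Lum/Postn/Ogn gate Spon1 had 69.1 and 73.9 CPM in mutants, against 12 and 15.1 CPM in wildtypes, and in the Penk/Alx1 gate 70.2 and 32.8 CPM in mutants, against 0 UMIs in wildtypes. Cells with no gate had 16.5 and 8.23 CPM in mutants, against 4.50 and 4.17 CPM in wildtypes. The Acta2/Myh11/Cnn1 gate went the other way, with 0 and 31.1 CPM in mutants and 93.2 and 19.3 CPM in wildtypes, the wildtype values resting on 6 and 1 UMIs.

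Ntrk3 had no UMI in the 154 mutant cells of the Penk/Alx1 gate, where Nefm had 81, and 21.4 and 39.6 CPM in the Lum/Postn/Ogn gate of mutants, against 16.1 and 0 CPM in wildtypes. In the Foxd1/Ntn1/Crabp1/Fibin gate it had 15.7 and 15.0 CPM in mutants, against 0 and 5.93 CPM in wildtypes. Rgs7bp had 31.3 and 38.9 CPM in the Lum/Postn/Ogn gate of mutants, against 8.03 and 24.2 CPM in wildtypes. In the Foxd1/Ntn1/Crabp1/Fibin gate it had 39.3 and 29.9 CPM in mutants, against 11.3 and 11.9 CPM in wildtypes, and it had no UMI in the 25 mutant cells of the Rgs5/Kcnj8/Abcc9 gate.

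**Figure D3:**
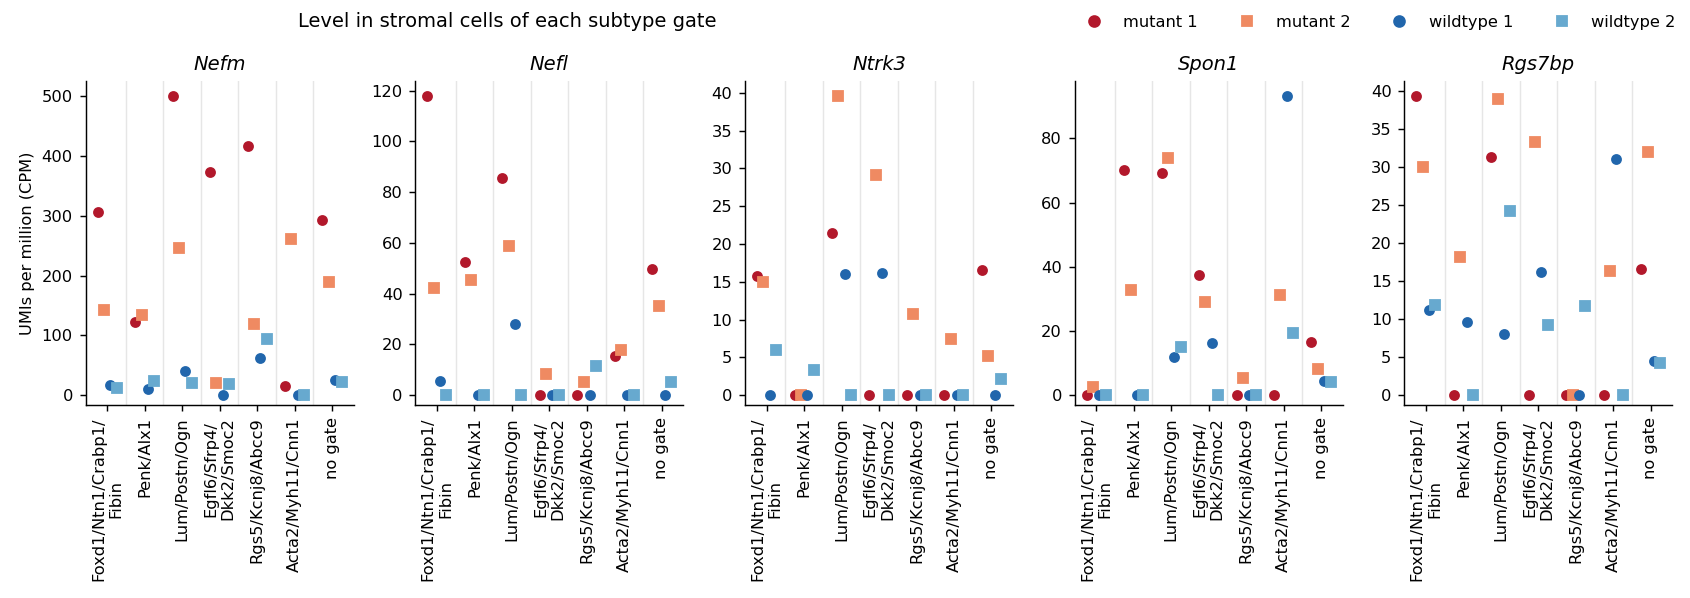
Level of each member in CPM on the y axis (each panel with its own scale) in the stromal subtype gates on the x axis, 1 point per library, with the mutant libraries left of the wildtype libraries in each gate. Nefm is higher in both mutant libraries in every gate, in some gates within counting error. Spon1 is near 0 in the Foxd1/Ntn1/Crabp1/Fibin gate, and Ntrk3 is at 0 in Penk/Alx1 mutant cells.

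The difference between gates was fitted over all 4 libraries with library as a block, by the quasi-likelihood method of edgeR over 8059 genes. It is not independent of the choice of members, because the Lum/Postn/Ogn gate was more common in mutant stroma and genes high in it are then higher in the mutant sums, so the differences are given as a description. With at least 25 cells required in every library, this gate could be set against cells with no gate. Spon1 was higher in the gate by 2.58 on the log2 scale (SE 0.36) and Ntrk3 by 2.2 (SE 0.55). Cells with no gate held few UMIs of either, 3 and 8 of Spon1 and 3 and 5 of Ntrk3 in mutants, against 2 and 4 of Spon1 and 0 and 2 of Ntrk3 in wildtypes. Neither gene passed a filter on low counts set by gate. The difference was 0.52 for Nefm (SE 0.17), 0.87 for Nefl (SE 0.34) and 0.73 for Rgs7bp (SE 0.35). Of all genes tested, 6.38% were called by edgeR, 4.34% as higher in the gate. Spon1 and Ntrk3 were among these, Ntrk3 was not among those of DESeq2, and no reading is drawn from these counts. With no mitochondrial limit Nefm and Nefl were among the called genes too, as was Nefm with at least 1000 genes per cell.

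A minimum of 10 cells, chosen after seeing the data, admitted 4 gates beside the cells with no gate, and Nefm, Nefl and Spon1 passed the filter on low counts there. Set against the mean of the other 4 sets of cells, Spon1 was lower in the Foxd1/Ntn1/Crabp1/Fibin gate by 4.07 on the log2 scale as fitted (SE 0.95), where it had 1 UMI in all. It was higher in the Lum/Postn/Ogn gate by 2.41 (SE 0.37), as were Nefl by 0.88 (SE 0.27) and Nefm by 0.78 (SE 0.28). Of the 6690 genes tested, edgeR called 8.76% as differing among the 5 sets, 0.643% as lower in the Foxd1/Ntn1/Crabp1/Fibin gate and 6.20% as higher in the Lum/Postn/Ogn gate. The called members were Spon1 in all of these and Nefl in the first and the last, and again nothing is read from that.

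Whether the genotype difference itself varied between the gates was tested as an interaction. None of the 5 members passed for the Lum/Postn/Ogn gate against cells with no gate by edgeR, which called 49 of 8059 genes (0.608%). No member was below an unadjusted p of 0.05, with the smallest for Rgs7bp (unadjusted p = 0.0731, adjusted p = 0.761 by edgeR). Its genotype difference was smaller in the Lum/Postn/Ogn gate by 1.57 on the log2 scale, with an approximate 95% interval from -3.29 to 0.15. For Nefm the interval of the interaction ran from -0.62 to 1.27, for Nefl from -2.51 to 1.01, for Spon1 from -0.66 to 3.20 and for Ntrk3 from -3.53 to 4.2. With at least 10 cells per gate, Spon1 came to an adjusted p of 0.0562 by edgeR.

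The members' differences in summed stroma were smaller once the gate shares were made equal. When each library's gate levels were weighted by 1 shared set of gate shares, which was decided with the data in view, the mutant over wildtype ratio was 11.1-fold for Nefm, against 12.1-fold in the plain sums, and 8.0-fold for Nefl, against 12.5-fold. For Ntrk3 it was 4.11-fold against 6.21-fold, for Spon1 3.42-fold against 6.28-fold and for Rgs7bp 2.30-fold against 3.37-fold. On the log2 scale the change was smaller than the spread between libraries for Nefm, Nefl and Ntrk3. Some of the weighted levels rested on few cells, such as 4 in the Rgs5/Kcnj8/Abcc9 gate of mutant 1.

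The neural control was read cell by cell. Chga had 0 and 28 UMIs in mutant stroma and none in wildtype stroma, and Chgb had 4 and 187 UMIs in mutant stroma, or 3.66 and 31.8 CPM, against 2 and 0 UMIs in wildtype stroma. Mutant 2 carried nearly all of both, and Ntrk3 and Rgs7bp were also higher in mutant 2 than in mutant 1, whereas Nefm and Nefl were higher in mutant 1 and Spon1 was level. Neither gene passed the filter on low counts in stroma, and without the filter Chgb was higher by 4.87 on the log2 scale (SE 0.79, adjusted p = 2.66e-06 by edgeR). The same RNA was found in other mutant cells, with Chgb at 0 and 13.2 CPM in mutant endothelium against 0 UMIs in wildtype endothelium. The 4 and 32 neural-gated mutant cells held 17613 and 20399 CPM of Chgb and 3956 and 5034 CPM of Chga.

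Of the 527 mutant stromal cells with Nefm, 21 had a UMI of Chga or Chgb, or 3.98%, against 68 of the 1410 without Nefm, or 4.82%. Within mutant 1 the shares were 0.980% with Nefm against 1.03% without, and within mutant 2 they were 4.71% against 5.43%. Cells with Nefm were also the deeper ones, with a median of 4227 UMIs against 2294, and depth raises the chance of any UMI. For Nefl the share was 5.26% of 209 cells with it, against 4.51% of those without. It was 7.63% of 131 cells for Ntrk3 against 4.37%, 5.96% of 235 cells for Spon1 against 4.41%, and 2.41% of 166 cells for Rgs7bp against 4.80%, and all but 1 of the cells with these 4 genes and a neural UMI came from mutant 2. The exact binomial 95% intervals of cells with and without the gene overlapped for all 5 members. They cover counting error only, and cells are not replicates, so the overlap does not show equal shares. Within mutant 2 the shares with and without the gene were 6.40% and 5.11% for Nefl and 8.77% and 4.98% for Ntrk3. They were 7.25% and 4.97% for Spon1 and 2.08% and 5.54% for Rgs7bp. In the 902 mutant stromal cells with any member, 4 had at least 3 UMIs of Chga and Chgb together. No wildtype stromal cell with a member had a UMI of either, 0 of 111 cells, with an exact binomial upper limit of 3.27%.

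The whole neural list of 15 genes summed to 37.5 and 65.8 CPM in mutant stroma, against 29.7 and 29.1 CPM in wildtype stroma. Of these, 11 and 14 genes had a UMI in the mutant libraries, against 7 and 8 in the wildtype libraries. Chga, Th, Dbh and Sox10 were at 0 in mutant 1, the library with the highest Nefm, and Chga and Sox10 were at 0 in both wildtype libraries. With every stromal cell that held any UMI of the list left out, the mutant over wildtype log2 difference was 3.61 for Nefm against 3.64 in all stromal cells, 3.69 for Nefl against 3.75, 2.84 for Ntrk3 against 2.71, 2.81 for Spon1 against 2.73 and 1.66 for Rgs7bp against 1.74.

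**Figure D4:**
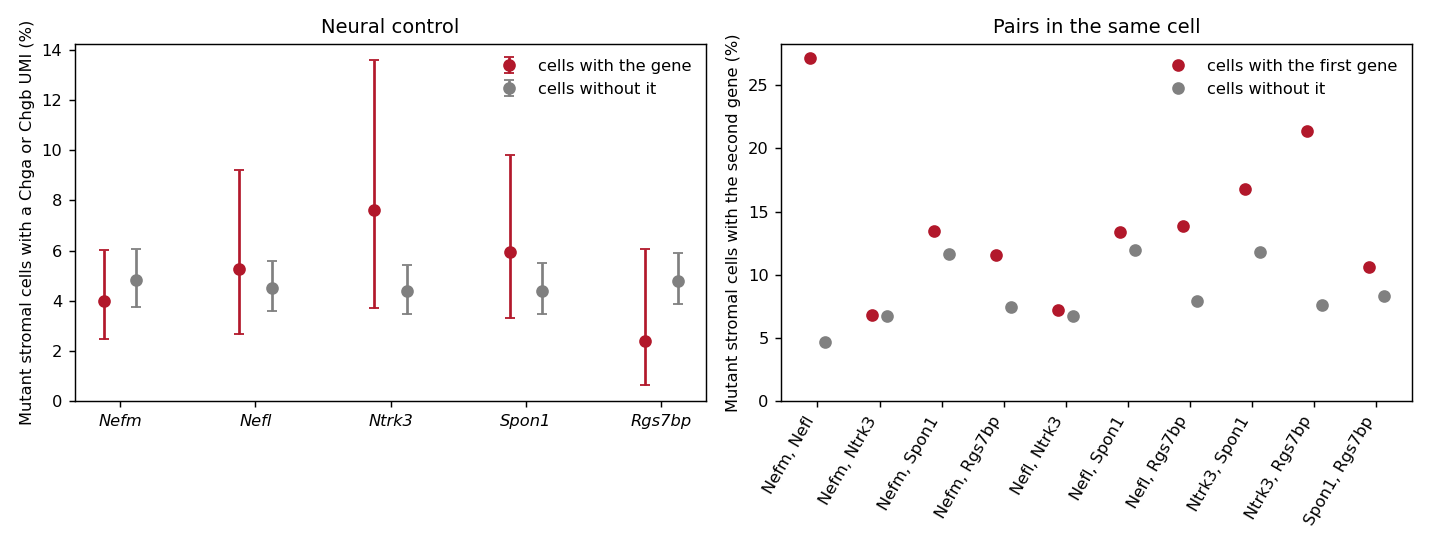
Left, percent of mutant stromal cells with a Chga or Chgb UMI among cells with each member (red) and without it (grey), with exact binomial 95% intervals. Right, percent of mutant stromal cells with the second gene of each pair among cells with the first gene (red) and without it (grey). The intervals of the neural shares overlap for all 5 members, which does not show equal shares. Nefm with Nefl shows the widest gap of the 10 pairs.

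Among themselves, the members shared cells to different degrees. Of 209 mutant stromal cells with Nefl, 143 also had Nefm, or 68.4%, against 384 of the 1728 without Nefl, or 22.2%. Both mutant libraries showed it, at 83.8% against 27.4% in mutant 1 and 65.1% against 21.3% in mutant 2, with medians of 4390 UMIs in cells with Nefl and 2575 in those without over both. Ntrk3 went most with Rgs7bp, which was found in 29.4% of mutant 1 cells with Ntrk3 and 6.09% of those without, and in 20.2% and 7.92% in mutant 2. Rgs7bp was also more frequent in cells with Nefm, at 9.80% against 6.19% without in mutant 1 and 12% against 7.65% in mutant 2. The mutant libraries likewise went the same way for Rgs7bp with Nefl, Rgs7bp with Spon1 and Ntrk3 with Spon1. For either filament gene with Ntrk3 or with Spon1 they went opposite ways. Nefm was found in 64.7% of the 17 mutant 1 cells with Ntrk3 and in 32.6% of those without, but in 21.9% and 26.2% in mutant 2. It was found in 31.0% of mutant 1 cells with Spon1 and 35.0% of those without, but in 30.1% and 25.3% in mutant 2. These shares cover counting error only, and were not tested because cells are not replicates.

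Outside the stroma, the same genotype contrast was tested in cells gated as nephron progenitors, nephron epithelium, podocytes, ureteric epithelium, endothelium, immune and erythroid cells, which the choice of members had not used. No member passed in the sum of these cells, by edgeR over 13290 genes, of which 19 (0.143%) were called, 0.105% as higher in mutants. Nefm was higher in mutants by 0.78 on the log2 scale (SE 0.52, adjusted p = 0.892), Spon1 by 0.71 (SE 0.43, adjusted p = 0.879) and Nefl by 0.02 (SE 0.57, adjusted p = 0.998). Rgs7bp was higher by 1.12 (SE 0.51, adjusted p = 0.748 by edgeR), with an unadjusted p of 0.0457 in the fit across all genes, and Ntrk3 did not pass the filter on low counts. The approximate 95% interval for Nefm ran from -0.25 to 1.80, and whether these differences departed from those in stroma was not tested. The sum differed in makeup, since no mutant cell passed the progenitor gate. Chgb and Chga were called higher in the summed mutant cells of these lineages. Chgb was higher by 7.48 as fitted over very few wildtype UMIs (SE 0.66, adjusted p = 0.000263 by edgeR). Chga (adjusted p = 0.0249 by edgeR) had no UMI in the wildtype cells, so that no fold is given for it. Among the lineages in this sum, the podocyte gate held most of the Chgb, with 438 and 207 CPM in mutants and no UMI in wildtypes. A few cells carried it, 1 of 37 in mutant 1 with 58 UMIs and 10 of 288 in mutant 2 with 193 UMIs. Their part in the fitted differences was not tested. The podocyte markers were also found in stroma-gated cells, at a summed 1217 and 1403 CPM in mutants and 1232 and 668 CPM in wildtypes. The endothelium markers came next among the other lineages, at up to 144 CPM there. Cells of the podocyte gate are thus called by their markers only and need not be podocytes.

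The few neural-gated cells, 4 and 32 in mutants against 0 and 4 in wildtypes, had 1507 and 184 CPM of Nefm in mutants and 1106 CPM in wildtype 2. They had 188 and 126 CPM of Nefl in mutants and 663 CPM in wildtype 2. Apart from these cells, Nefm had its highest mutant level in stroma, 299 ± 129 CPM. Cells with no lineage gate followed at 48.4 ± 35.4 CPM, then podocyte-gated cells at 23.1 ± 11.3 CPM (SD, n = 2 each). These last 2 overlapped between libraries. The podocyte-gated level rested on 2 and 29 Nefm UMIs, from 2 of 37 and 5 of 288 cells. The podocyte gate was likewise not compared with neural markers. Ureteric cells had 14 and 4.83 CPM, nephron epithelium 0 and 6.82 CPM and endothelium 0 and 2.92 CPM, and immune cells none. In wildtypes the order differed, with 67.4 and 12.1 CPM in progenitor-gated cells overlapping the 26.4 and 23.1 CPM of stroma. Nefl in wildtypes was at 36.0 and 22.5 CPM in progenitor-gated cells, above the 6.60 and 2.77 CPM of wildtype stroma and the 3.32 and 3.86 CPM of nephron epithelium. Those progenitor values rest on 8 and 28 Nefl UMIs.

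Spon1 was found in other lineages of both genotypes. It had 37.5 and 27.7 CPM in mutant nephron epithelium, against 21.5 and 24.5 CPM in wildtype nephron epithelium, and 45.3 and 27.8 CPM in mutant podocyte-gated cells, against 16.4 and 6.41 CPM in wildtype ones. The higher of the mutant podocyte-gated values lay just below both mutant stroma values, within counting error. Rgs7bp was at its highest in endothelium, with 46.3 and 34.6 CPM in mutants, against 19.7 and 47.7 CPM in wildtypes, so there the genotypes overlapped. Immune cells had 46.4 and 28.9 CPM in mutants, against 9.79 and 20.9 CPM in wildtypes, from 13 UMIs in all. Ntrk3 had at most 5.46 CPM in any other lineage gate of any library, apart from the neural gate.

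**Figure D5:**
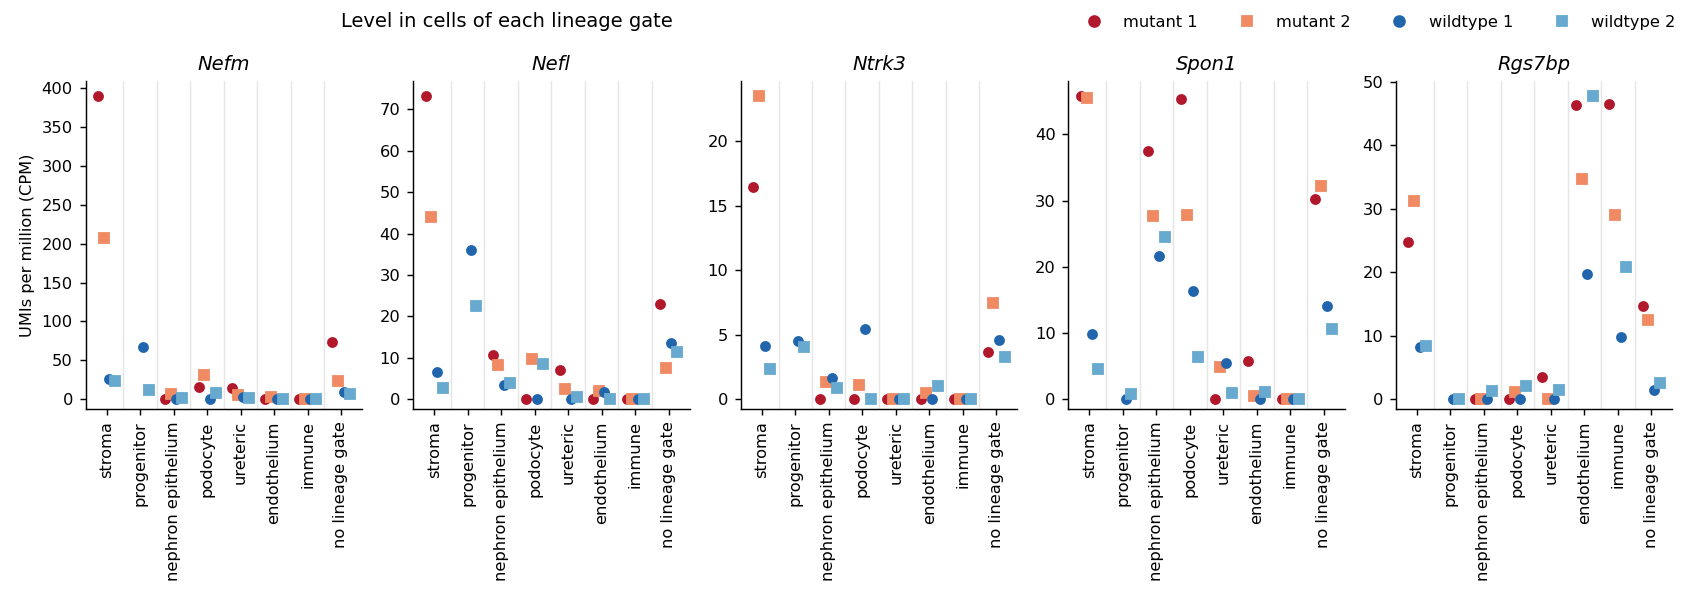
Level of each member in CPM on the y axis (each panel with its own scale) in the lineage gates on the x axis, 1 point per library, with the mutant libraries left of the wildtype libraries. No mutant cell passed the progenitor gate. Of the gates shown, which leave out the few neural and erythroid cells, stroma holds the highest mutant levels of Nefm, Nefl and Ntrk3. Rgs7bp is higher in endothelium than in stroma in each library, in part within counting error.

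The genes around the filament pair did not share its level. Dock5, beside Nefl, had 2.75 and 2.21 CPM in mutant stroma, against 5.78 and 3.69 CPM in wildtype stroma. Gnrh1 had 0 and 2 UMIs in mutant stroma and none in wildtype stroma, and Adam7 and Adamdec1, beyond Nefm, had at most 1 UMI in any library.

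Related genes were taken from 7 lists by role. None of those that passed the filter on low counts in stroma was called between genotypes by edgeR, where 0.143% of the 10515 genes tested were. The levels in these lists are CPM scaled by TMM library factors. Of the partners of neurofilaments, 3 of 7 genes were tested, with a median log2 difference of 0.16 beside 0.00 over all genes tested. Nefh, which encodes the heavy subunit, and Ina and Prph, which encode other neuronal intermediate filaments, were too low to test. Vim, the intermediate filament of mesenchyme, had 1057 and 922 CPM in mutant stroma, against 687 and 669 CPM in wildtype stroma (log2 difference 0.54, SE 0.40, adjusted p = 0.970 by edgeR). Dst, a linker of filaments and microtubules, had a log2 difference of 0.16 (SE 0.40, adjusted p = 0.992).

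Of 18 genes of the neuronal cytoskeleton and synapse, 9 were tested, 4 of them with a log2 difference above 0 and a median of -0.23. At an unadjusted p below 0.05 there were 4 of the 9, beside 676 of all 10515 genes tested. Stmn2, a microtubule regulator of neurons, had 3.07 and 4.69 CPM in mutant stroma, against 10.4 and 14.1 CPM in wildtype stroma (log2 difference -1.54, SE 0.53, adjusted p = 0.461 by edgeR). None of the 12 sympathetic and chromaffin genes passed the filter. Of 9 Schwann cell and glial genes, 2 were tested, and Fabp7, a fatty acid binding protein of glia, had a log2 difference of 0.50 (SE 0.45, adjusted p = 0.978 by edgeR).

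The neurotrophins and the receptors other than Ntrk3 had a median of -0.23 over the 6 of 8 genes tested. Ntf5, the mouse gene for neurotrophin-4, had 11.3 and 8.76 CPM in mutant stroma, against 7.20 and 1.46 CPM in wildtype stroma (log2 difference 1.31, SE 0.68, adjusted p = 0.869 by edgeR), and Sort1, a co-receptor, differed by 0.62 (SE 0.47, adjusted p = 0.970). Of the partners of Rgs7bp, the R7 family members Rgs6, Rgs7, Rgs9 and Rgs11 and their partner Gnb5 were too low to test. Gnao1, a G protein subunit that R7 proteins act on, had 11.3 and 12.2 CPM in mutant stroma, against 5.60 and 5.34 CPM in wildtype stroma (log2 difference 1.12, SE 0.51, adjusted p = 0.735), and Gnai1 differed by 0.30 (SE 0.47, adjusted p = 0.979). The 5 tested relatives of Spon1 among spondins and thrombospondins had log2 differences above 0, with a median of 0.60. Rspo3, an amplifier of Wnt signalling, had 62.5 and 91.1 CPM in mutant stroma, against 41.6 and 27.2 CPM in wildtype stroma (log2 difference 1.19, SE 0.37, adjusted p = 0.341), and Thbs3, a matrix thrombospondin, had 29.7 and 24.7 CPM, against 16.8 and 7.28 CPM (log2 difference 1.21, SE 0.46, adjusted p = 0.562).

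The genes whose levels followed each member most closely were found over 24 sums, made of 6 cell groups in 4 libraries, by Pearson correlation of log2(CPM + 5) among 9350 genes. The sums of a library share its cells' preparation and depth, and the 2 stromal groups are among them, so the values are a description. All members were chosen as higher in mutant stroma, so the correlation of one member with another is partly set by that choice. For Nefm they were Mrc2 (r = 0.936), Gpm6b (0.886), Sfrp1 (0.884), Figf (0.877) and Matn2 (0.876), and each of these also had r of at least 0.89 within either genotype. Mrc2 encodes a collagen receptor, Sfrp1 a secreted Wnt inhibitor and Matn2 a matrix protein. For Nefl they were Nefm (r = 0.845), Lhfpl2 (0.804), Lonrf1 (0.795), Mrc2 (0.793) and Arhgap20 (0.793). Within the wildtype libraries alone, r between Nefl and Nefm was 0.496. For Ntrk3 they were Nefl (r = 0.837), Fap (0.833), Prrx1 (0.794), Hsp90b1 (0.793) and Plac9a (0.784). Fap marks activated fibroblasts and Prrx1 is a transcription factor of mesenchyme. Within the wildtype libraries alone, r with Ntrk3 was 0.687, 0.598, 0.582, 0.584 and 0.518 in the same order. Ntrk3 had a mean of 4.70 CPM over the sums, below the 5 added before the logarithm. For Spon1 they were Gria3 (r = 0.855), Nrxn2 (0.802), Trabd2b (0.797), Sfrp2 (0.758) and Hoxd11 (0.754), the last being 1 of the 6 targeted genes. For Rgs7bp they were BC028528 (r = 0.889), Emcn (0.886), Plk2 (0.886), Fam198b (0.885) and Prkcdbp (0.881), and Emcn, a sialomucin, is a marker of endothelium.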

How the data were processed

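Libraries were grouped by the genotype in their labels, 2 mutant and 2 wildtype. The values are UMI counts per gene and barcode as deposited by the authors, and the reads had been handled with Bowtie2 2.2.7 and mm10, per the submitters' processing notes. Strand handling and the counting tool are not given in the sources used here. The 5 genes and the gene lists were chosen with earlier results of these data known.

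Of 15144 barcodes, 11723 were kept, with at least 500 genes, at most 10% mitochondrial counts and a Scrublet doublet score outside the top 5% of the library (676 barcodes). Scrublet's own threshold marked only 17. The libraries shared 3 barcode sequences. Cells were gated by marker UMIs, with at least 3 UMIs for a lineage and 2 for a stromal subtype. Cells were summed per library, with at least 25 cells per gate and library. Tests used edgeR 4.0.16 (quasi-likelihood, TMM, filterByExpr, Benjamini-Hochberg over all genes tested, threshold 0.05) in R 4.3.3, and DESeq2 1.42.0 as an alternative. An exact permutation test of 2 against 2 libraries cannot go below p = 0.333, so none was used. The edgeR procedure was checked on simulated counts. P-values measure the spread between these libraries only. Depth ran from 3572346 to 24834658 counts per library, and intervals (exact Poisson or Clopper-Pearson, 95%) and the floor of 3 counts cover counting error only. Other genes named are the 2 of each list with the smallest p in stroma (up to 4 where any passed), the 5 most like each member, and the neighbours of Nefm and Nefl. Some genes that this rule names are not reported here. Alternatives covered filters, gates, normalisation, thinning, replicate blocks and leaving out each library. Positions and the transcripts compared are from GENCODE on mm10.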

Additional observations from a re-analysis of the deposited data

Results flagged for a closer look

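Some members were also above the wildtype level in both mutant libraries in cells outside the main comparisons, and others were not. In cells that passed no lineage gate, Nefm had 73.4 and 23.4 CPM in mutants, against 8.98 and 7.15 CPM in wildtypes, with a mutant mean of 48.4 CPM. In the same cells Spon1 had 30.3 and 32.1 CPM in mutants, against 14 and 10.6 CPM in wildtypes, with a mutant mean of 31.2 CPM. Rgs7bp had 14.7 and 12.5 CPM in mutants, against 1.38 and 2.60 CPM in wildtypes, with a mutant mean of 13.6 CPM. Nefl had 22.9 and 7.48 CPM in mutants, against 13.6 and 11.3 CPM in wildtypes, and Ntrk3 3.67 and 7.48 CPM in mutants, against 4.6 and 3.25 CPM in wildtypes, so the genotypes overlapped for both. These cells numbered 308 and 1529 in mutants and 941 and 2792 in wildtypes.

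Stroma-gated barcodes left out for a mitochondrial share above 10% numbered 91 and 767 in mutants, against 57 and 85 in wildtypes. They entered only the setting with no mitochondrial limit. In them Nefm had 318 and 115 CPM in mutants, against 15.3 and 11.5 CPM in wildtypes, with a mutant mean of 216 CPM. Nefl had 35.3 and 26.7 CPM in mutants, a mean of 31.0 CPM, and no UMI in wildtypes. Spon1 had 88.2 and 74.2 CPM in mutants, a mean of 81.2 CPM, against 30.6 and 0 CPM in wildtypes. The genotypes overlapped for Ntrk3, with 17.6 and 25 CPM in mutants against 45.9 and 0 CPM in wildtypes, and for Rgs7bp, with 26.5 and 21.7 CPM in mutants against 0 and 22.9 CPM in wildtypes. Each wildtype value here rests on at most 3 UMIs.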

How the results depend on the processing

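Over the alternatives run, the members' mutant over wildtype log2 differences in stroma were above 0 throughout, from 2.96 to 4.13 for Nefm, 3.19 to 4.30 for Nefl, 2.34 to 3.03 for Ntrk3, 2.25 to 3.21 for Spon1 and 1.62 to 1.83 for Rgs7bp. Standardised to shared gate shares, the differences of Spon1 and Rgs7bp moved to 1.78 and 1.20. The genes called in stroma numbered 15, and 25 with at least 1000 genes per cell, 28 with no doublet step, 5 with a stroma gate without collagens, 24 by DESeq2, 88 with no filter and 50 to 130 with 1 library left out. In the other lineages 19 genes were called, and 45 with the gate without collagens, 12 without neural UMIs, 52 by DESeq2, 103 with no filter and 20 to 87 with 1 library left out. Between gates 514 were called, and 193 by DESeq2 and 211 to 838 with 1 library left out. For gate by genotype 49 were called, and 22 with at least 1000 genes, 32 with a stroma gate of at least 5 UMIs, 75 with a subtype gate of at least 3, 154 with at least 10 cells, 3 by DESeq2, 14 with no filter and 5 to 180 with 1 library left out. The log2 ratio of the share of cells with Nefm was 2.76, and 2.30 without thinning. That of Rgs7bp was 3.32, and 1.85 at 500 UMIs, 2.01 at 1500 and 1.82 without thinning. Nefm in the other lineages passed under the gate without collagens (2.96, adjusted p = 0.0151 by edgeR). The cause of these changes was not tested.

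Some differences changed sign, none of them past the test. With 1 library left out, the log2 differences in stroma ran from -0.29 to 0.73 for Dst and from -0.58 to 0.97 for Gnai1. Those in the other lineages ran from -0.26 to 0.41 for Nefl. Those for gate by genotype ran from -0.059 to 0.80 for Nefm, from -6.84 to 6.30 for Nefl and from -4.56 to 6.50 for Ntrk3, the lowest of each without wildtype 2. Under the gate without collagens, Fabp7 was at -0.31 and Rspo3 at -0.089 in stroma. In the other lineages Nefl was at -0.085 without barcodes above 50000 UMIs, -0.49 without neural UMIs, -0.024 with no filter and -0.016 with the replicate block. For gate by genotype Ntrk3 was at -0.18 with a stroma gate of at least 5 UMIs and -0.33 with a subtype gate of at least 3.

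Same-numbered libraries did not deviate together (correlation -0.115 in stroma and -0.0824 in the other lineages), so the numbers were not taken to pair them. With the replicate block 22 genes were called in stroma and 96 in the other lineages, and with the crossed pairing 0 by edgeR (743 at an unadjusted p under 0.05, and 24 by DESeq2 without a block). Settings with at least 10 cells, without barcodes above 50000 UMIs, without neural UMIs in the other lineages, standardised shares, the crossed pairing and the filter by gate were chosen after seeing the data. The gate without collagens left no gate with at least 25 cells per library, so the gate tests were not run there. With 2 libraries per genotype and few wildtype UMIs, low levels carry wide counting intervals.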
